A study of Mus musculus with 3 samples.

Results

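Mef2c, Slc13a5, Gnao1, Cux2, Chd2 and Aldh7a1 are 6 of the 32285 genes counted in single-nucleus RNA libraries of mouse hippocampus. They were chosen by symbol, because variants in their human counterparts are known causes of developmental and epileptic encephalopathy although none of them encodes an ion channel. All 6 symbols were present once in the gene list of each library. The study sequenced nuclei from the hippocampi of 3 adult female mice, mice 1, 2 and 3, each of genotype Scn8aD/+. Scn8a encodes a voltage-gated sodium channel, the D allele is a point mutation, and the titles call all 3 samples post-onset. All 3 libraries therefore form 1 group in which every animal carries the allele. Controls were not analysed here, and the values describe cell classes within the hippocampus of Scn8aD/+ mice and not an effect of the allele. A batch held 1 mouse, which means that batch and animal cannot be told apart, and counts from transcript 3′ ends do not check the point mutation.

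The 6 proteins act at different steps of a cell's work. Mef2c and Cux2 are sequence-specific transcription factors, Mef2c of the MADS-box family that shapes synapse number and also microglial state, Cux2 a homeodomain factor of upper cortical layers and of interneurons. Chd2 is an ATP-dependent chromatin remodeller. Gnao1 encodes the alpha subunit of Go, the abundant brain G protein that couples receptors for inhibitory transmitters to calcium and potassium channels. Slc13a5 is the sodium-coupled citrate carrier of the plasma membrane, and Aldh7a1 is the aldehyde dehydrogenase of lysine breakdown whose loss causes pyridoxine-dependent epilepsy.

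On mm10 (GRCm38), with GENCODE M21 gene models, Mef2c spans chr13:83504034-83667080 on the plus strand and Cux2 chr5:121856366-122050102 on the minus strand. Chd2 spans chr7:73426638-73541830 on the minus strand, Gnao1 chr8:93809966-93969388 on the plus strand and Slc13a5 chr11:72241989-72267222 on the minus strand. A counted gene on the same strand, 1810026B05Rik, overlaps Chd2 and held 15768 UMIs against 44077 for Chd2, so some counts of these 2 genes may have been split uncertainly. Antisense or opposite-strand neighbours overlap Slc13a5, Gnao1, Cux2, Chd2 and Aldh7a1, the largest beside its partner being Phax with 4908 UMIs against 6367 for Aldh7a1, while Mef2c overlaps no other counted gene.

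Mef2c has 3 start sites in RefSeq (GRCm38.p6), and counts of transcript 3′ ends do not separate their use. The 250 bases before the most 5′ start (chr13:83503784-83504033, plus strand) and before the most 3′ start (chr13:83573357-83573606, plus strand) are shown because Mef2c was high in microglia, interneurons and granule neurons at once, and because neither window meets an annotated exon.
Mef2c, most 5′ start: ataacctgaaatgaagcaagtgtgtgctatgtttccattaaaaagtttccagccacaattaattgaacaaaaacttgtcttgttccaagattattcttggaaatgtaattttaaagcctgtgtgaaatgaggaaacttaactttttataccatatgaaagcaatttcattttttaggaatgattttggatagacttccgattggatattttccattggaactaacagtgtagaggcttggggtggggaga
Mef2c, most 3′ start: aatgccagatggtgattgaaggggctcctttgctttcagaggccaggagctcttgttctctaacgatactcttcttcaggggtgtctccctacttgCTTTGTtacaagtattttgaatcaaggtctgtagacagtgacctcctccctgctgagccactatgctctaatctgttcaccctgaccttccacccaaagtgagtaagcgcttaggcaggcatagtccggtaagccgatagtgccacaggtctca
Capitals mark a match to the SOX core ACAAAG, here on the opposite strand. Both strands were searched for 6 motifs, and this was the only match in the 2 windows printed. The window before the remaining start (chr13:83523406-83523655), which meets an annotated exon and is not printed, held a PU.1 core and a GC box. In the same 250 bases of 32851 promoters, that SOX core was found in 16.5%, the E-box CAGCTG in 13.0%, the PU.1 core GAGGAAG in 10.6%, the cyclic AMP response core TGACGT in 6.47%, the GC box GGGCGG in 32.7% and the MEF2 site in 2.92%. The window at the most 5′ start held none of these 6 motifs and a GC content of 33.6%, against 49.6% at the most 3′ start. RefSeq promoter windows were matched for 4 of the 6 genes.

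The 3 libraries held 8863, 13904 and 4659 barcodes for mice 1, 2 and 3, with a median of 8859, 1711 and 25775 UMIs, and 7889, 11994 and 4393 nuclei were kept. Mouse 2 stood apart. It was the shallowest, and 25.8% of its kept nuclei stayed in clusters without a name against 3.98% and 0.501% in mice 1 and 3. Transcripts of other classes were more frequent in its glia and in its inhibitory neurons. The summed level of 8 glutamatergic markers, none of them at 0, was 53.7% to 63.9% of the level in glutamatergic-like nuclei in the 4 glial classes of mouse 2, and 16.3% to 29.9% in those of mice 1 and 3. Pairs of libraries shared 13 to 36 barcodes. Clusters were named from fixed marker genes into 17 classes present in all mice, written "-like", which included granule-, CA1- and CA3-like neurons of the hippocampus. In the largest CA3-like cluster the mean log2 fold over other glutamatergic-like nuclei was 1.32 for CA3, 1.29 for mossy cell and 1.17 for CA2 markers. There 4 CA3 markers, 1 mossy cell marker and 2 CA2 markers met the 2-fold rule. This cluster held 93, 953 and 2 nuclei of mice 1, 2 and 3. A CA3-like cluster of 258 nuclei, all from mouse 3, scored 1.42 for CA3 and 1.17 for CA2 markers. The endothelial-like cluster met the rule for 7 endothelial markers and also for 9 mural or fibroblast markers, so its name does not separate these kinds of cell.

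Levels are given as CPM, the usual depth-scaled count: the UMIs of a gene scaled to the UMIs summed over the nuclei of a class in 1 mouse, and errors are SD over n = 3 mice unless stated. They include both the share of nuclei expressing a gene and the RNA per nucleus, which cannot be told apart in sums. A gene was called between 2 classes at a Benjamini-Hochberg adjusted p under 0.05 over all genes together with an absolute log2 difference of 1 or more, by edgeR's quasi-likelihood test on sums with the mouse as a block. The error of a fitted log2 fold change is an SE. It was taken as the absolute fold change divided by the square root of the test's F statistic. CPM are not comparable between genes of different length.

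Mef2c was high in unrelated kinds of cell, among them microglia, Lamp5- and Pvalb-like interneurons and granule-like neurons, and low in CA pyramidal neurons. In Lamp5-like interneurons its level was 1154, 1015 and 1544 CPM in mice 1, 2 and 3. In microglia-like nuclei it was 1527, 838 and 1295 CPM. The 2 classes led the order of 17 classes with means of 1237 ± 274 and 1220 ± 351 CPM, and they overlapped. Pvalb-like nuclei followed with 1204, 829 and 758 CPM. Inhibitory nuclei that no subtype named came next with 967, 506 and 1026 CPM. Of their clusters, 1, picked after its level was seen, held 1809, 1581 and 1377 CPM. Of the 667 such nuclei of mouse 2, 148 lay in a cluster whose leading genes include 9630013A20Rik, Cnksr3, Cldn14 and Tcf7l2. These genes also led an oligodendrocyte-like cluster of mouse 1 clustered alone. A further 199 lay in a cluster led in part by Gm34466 and ETV3L, which also led CA1-like clusters. The identity of these clusters is uncertain, and their Mef2c was 410 and 306 CPM in mouse 2. By their mean, granule-like nuclei followed with 487, 482 and 1093 CPM, where mouse 3 stood above the others. At the low end were CA1-like nuclei with 63.1, 92.5 and 116 CPM and CA3-like nuclei with 37.1, 93.1 and 47.3 CPM. Each pair of neighbours in the Mef2c order had overlapping ranges over the mice, while the highest value among CA1- and CA3-like sums lay below the lowest granule-like value.

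**Figure D1:**
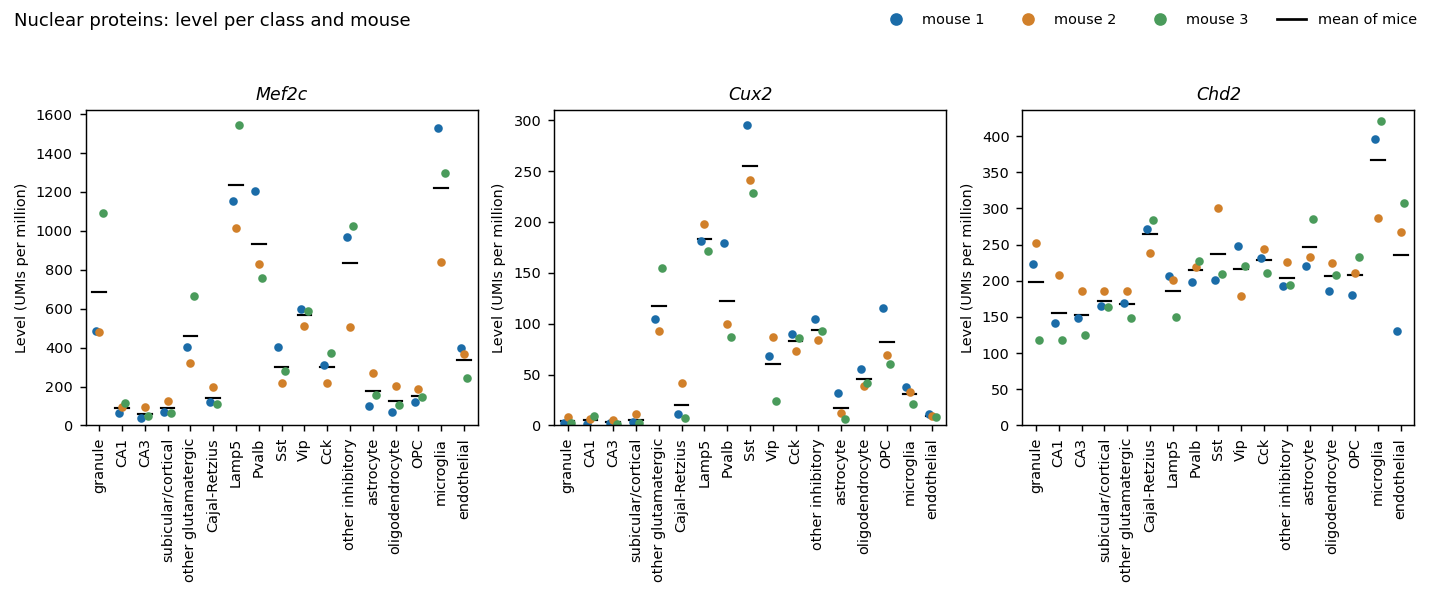
Level of Mef2c, Cux2 and Chd2 in CPM on linear axes from 0, for each of 17 marker-defined classes. Points are mice 1 to 3 and bars the mean over mice. Mef2c reached over 1000 CPM on average only in Lamp5- and microglia-like nuclei, Cux2 was highest in Sst-like nuclei, and Chd2 was present in every class.

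Between granule-like and CA pyramidal-like nuclei, where 16.7% of 16600 genes were called, Mef2c was the only member called of the 5 tested. It was 687 ± 351 CPM in granule-like and 77.4 ± 21.9 CPM in CA pyramidal-like sums, and the fitted log2 fold change, with its SE, was 3.13 ± 0.29 at an adjusted p of 0.0016; all 3 mice were higher, with no overlap. The nuclei of each mouse came mostly from different clusters within these classes. In mouse 2, whose granule-like nuclei came from a shallow and a deep cluster, Mef2c was 338 CPM in the 725 nuclei of the shallow cluster (median 1955 UMIs) and 559 CPM in the 226 of the deep cluster (median 13211). In CA1-like nuclei of the same mouse it was 156 CPM in the shallow cluster and 52.2 CPM in the deep cluster, so the granule-to-CA1 gap was wider in the deep nuclei.

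Microglia-like nuclei exceeded oligodendrocyte-like nuclei in Mef2c, the 1 member called of 5 tested where 12.5% of 13542 genes were called. Oligodendrocyte-like nuclei held 67.3, 203 and 107 CPM against the 838 to 1527 CPM of microglia, and the ranges did not overlap. The log2 fold change was 3.05 ± 0.53 (adjusted p = 0.0358), higher in 3 of 3 mice. The call rests on mice 1 and 3: without mouse 1 the adjusted p was 0.234 (log2 fold change 2.52) and without mouse 3 it was 0.201 (3.04), and in both fits no gene at all was called. The fit without mouse 2 kept the call. Within mouse 2, Mef2c was 2585 CPM in the 89 microglia-like nuclei that clustered with those of mouse 1 and 664 CPM in 1500 that formed their own cluster, whose median depth was 1316 UMIs. Oligodendrocyte-like nuclei of mouse 2 showed the opposite: 61.4 and 54.2 CPM in the clusters shared with mouse 1, and 264 CPM in the 1093 nuclei of its own shallow cluster. The part played by RNA of other cells was not tested.

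Inhibitory neuron-like nuclei held 765, 538 and 740 CPM of Mef2c and glutamatergic neuron-like nuclei 245, 195 and 502 CPM. The inhibitory sum of mouse 2, of 1373 nuclei, included the uncertain clusters described above. The lowest inhibitory value stood just above the highest glutamatergic value. Mef2c and Cux2 were the 2 members called of the 5 tested in this comparison, where 15.1% of 16600 genes were called. The Mef2c log2 fold change was 1.11 ± 0.25 (adjusted p = 0.0277), higher in 3 of 3 mice, and it lay near the fold minimum. It fell below that minimum without mouse 1 (0.91, adjusted p = 0.128) and without mouse 2 (0.97, adjusted p = 0.0695), after thinning each nucleus to 1000 UMIs (0.77, adjusted p = 0.0565) and with no mouse block (0.90, adjusted p = 0.361). Within inhibitory neurons the level was uneven, since Sst-like nuclei held 405, 217 and 280.5 CPM, below the lowest value of either Lamp5- or Pvalb-like nuclei. Between Pvalb- or Sst-like and Lamp5-, Vip- or Cck-like sums the difference was -0.56 ± 0.14 (adjusted p = 0.0214), under the fold minimum, and it turned to 0.13 when each library was clustered alone.

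The share of nuclei with a Mef2c UMI was compared after all nuclei were thinned to 1000 UMIs, which left out 232, 2686 and 0 nuclei of mice 1, 2 and 3. It was 73.3%, 50.2% and 67.2% in microglia-like, 58.7%, 54.5% and 56.1% in Lamp5-like and 38.2%, 32.4% and 62.6% in granule-like nuclei. Of these 3 classes, microglia-like nuclei had the highest share in mice 1 and 3 and Lamp5-like nuclei in mouse 2, and in mouse 3 the granule-like share lay above the Lamp5-like share. In oligodendrocyte-like nuclei, a low glial class, it was 6.69%, 18.0% and 11.04%. Without thinning the granule-like shares were 94.7%, 60.1% and 99.8% and the oligodendrocyte-like shares 17.5%, 27.7% and 47.9%, at median depths of 10109, 2407.5 and 24830 against 2874.5, 1402 and 6079 UMIs. Microglial markers were near 0 in Lamp5-like interneurons: the highest of 8, P2ry12, stood at 19.5, 33.2 and 12.2 CPM. Tmem119 had 0, 1 and 0 UMIs there and C1qa 0, 2 and 0 UMIs, where a count of 0 allows up to 3 UMIs by counting error.

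**Figure D2:**
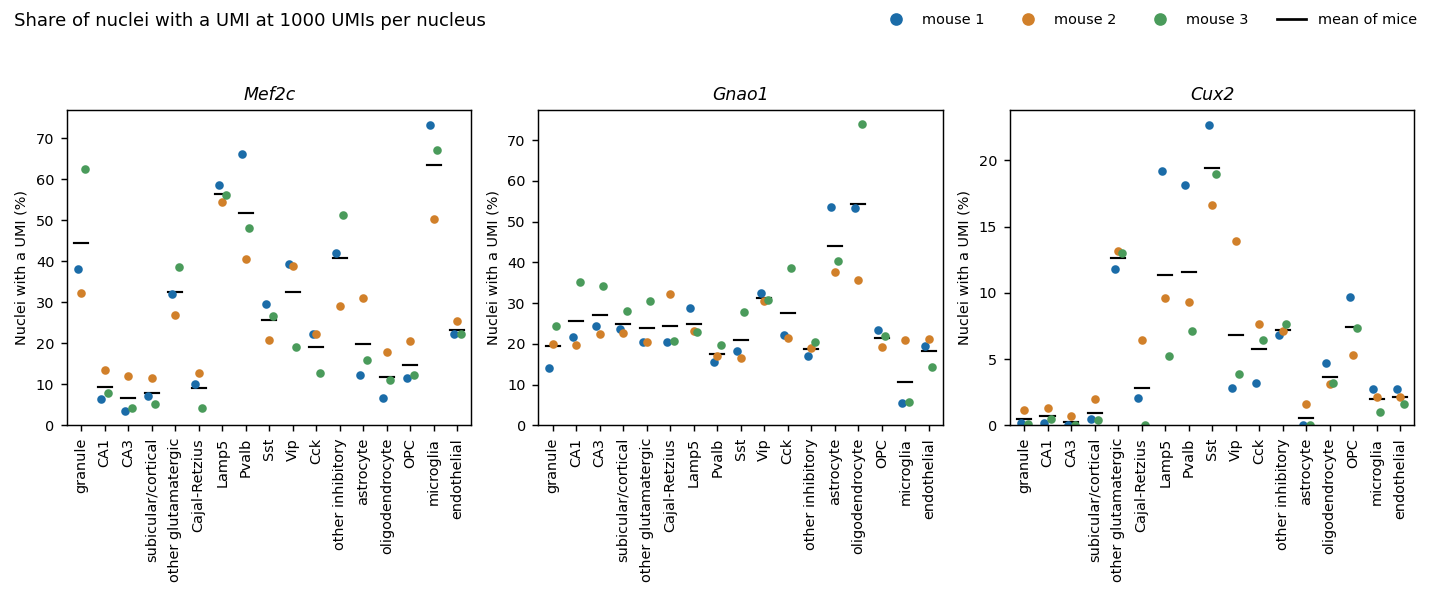
Share of nuclei with at least 1 UMI of Mef2c, Gnao1 and Cux2, in percent, after each nucleus was thinned to 1000 UMIs, for 17 classes. Points are mice and bars their mean. For Mef2c, microglia- and Lamp5-like nuclei lie between 50.2% and 73.3% and CA1-like nuclei between 6.53% and 13.5%.

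Cux2 was higher in inhibitory than in glutamatergic neurons and was almost absent from granule-, CA1- and CA3-like neurons. It was highest in Sst-like nuclei, with 295, 241 and 229 CPM, a range that did not overlap that of Lamp5-like nuclei with 181, 198 and 171 CPM. Pvalb-like nuclei held 179, 100 and 86.9 CPM, with mouse 1 above the other mice. Cck-like nuclei (82.9 ± 8.56 CPM) and Vip-like nuclei (60.0 ± 32.6 CPM) lay near oligodendrocyte precursor-like nuclei (81.6 ± 29.6 CPM). Cux2 was not called between neurons and glia, where the log2 difference was 0.06 ± 0.23 (adjusted p = 0.842). Granule-like nuclei held 2.81, 7.84 and 2.06 CPM, CA1-like nuclei 1.29, 6.38 and 9.52 CPM and CA3-like nuclei 2.08, 5.84 and 0.994 CPM, and these low ranges overlapped. Inhibitory sums were 146 ± 29.7 CPM and glutamatergic sums 18.4 ± 4.84 CPM, a log2 fold change of 2.88 ± 0.17 (adjusted p = 0.00168), higher in 3 of 3 mice without overlap. The Cux2 call stayed in each alternative run for it. The uncertain clusters of mouse 2 described above were part of the inhibitory sum, with 87.8 and 60.0 CPM of Cux2. Thinned to 1000 UMIs, a Cux2 UMI was found in 22.6%, 16.7% and 19.0% of Sst-like nuclei and in 0.218%, 1.17% and 0.0747% of granule-like nuclei. Without thinning the shares were 91.2%, 48.3% and 93.7% in Sst-like and 2.73%, 3.81% and 4.93% in granule-like nuclei, at median depths of 13598, 3276 and 36536 against 10109, 2407.5 and 24830 UMIs. Pvalb- or Sst-like sums exceeded Lamp5-, Vip- or Cck-like sums by 0.64 ± 0.13 on the log2 scale (adjusted p = 0.00576), again under the fold minimum, so that 0 of 5 tested members were called there beside 7.95% of 12779 genes. DESeq2 called none of the 5 either, and 3 of them, Gnao1, Cux2 and Mef2c, had an unadjusted p under 0.05 by edgeR.

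In mice 1 and 3 most of the glutamatergic Cux2 came from a few nuclei, whereas in mouse 2 the larger share came from the other nuclei. In clusters of glutamatergic-like nuclei that the subtype markers did not name, Cux2 was 236, 225 and 229 CPM in a cluster whose leading genes include Pdzrn3, Npsr1 and Atp10b, and 175 and 189 CPM in mice 1 and 3 in a cluster led by Cpa6, Lef1 and Hmcn1. These clusters, picked after their Cux2 levels were seen and so given without a test, lay at the level of Lamp5- and Sst-like interneurons. They made up 9.22%, 3.08% and 10.5% of glutamatergic-like nuclei and held 88.9%, 45.1% and 84.3% of the Cux2 UMIs of all glutamatergic-like nuclei. The level in the rest was 2.33, 7.45 and 3.93 CPM. They were glutamatergic by their markers. The cluster led by Pdzrn3 held 2876, 2687 and 2908 CPM summed over 8 glutamatergic markers and 47.1, 312 and 73.9 CPM over 7 inhibitory markers. The 11 markers of subicular or cortical glutamatergic neurons summed to 3546, 3509 and 3347 CPM in it. In the cluster led by Cpa6 they summed to 1812 and 2528 CPM in mice 1 and 3. The sums did not name a subtype. In the cluster led by Pdzrn3 the mean log2 fold of these markers over other glutamatergic-like nuclei was -0.29, and 3 of them met the 2-fold rule. The same nuclei were high in Mef2c, with 703, 718 and 877 CPM against 204, 181 and 465 CPM in the other glutamatergic-like nuclei. The 2 further clusters without a subtype were low in both genes, with at most 4.12 CPM of Cux2 and 119 CPM of Mef2c.

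**Figure D3:**
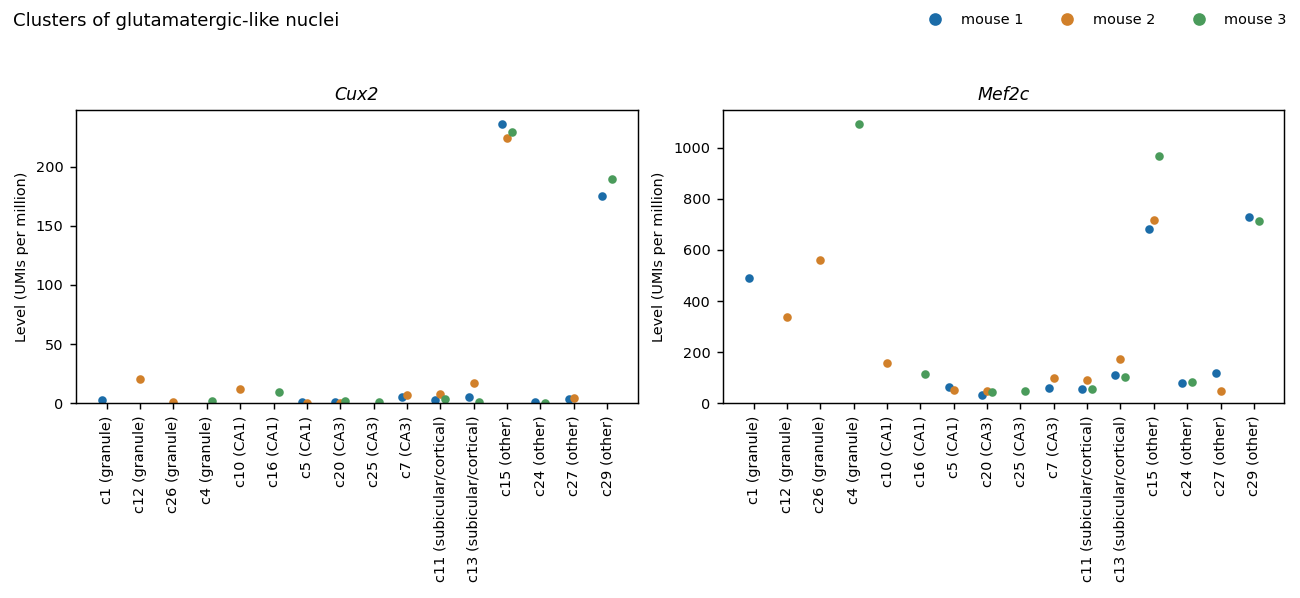
Level of Cux2 and Mef2c in CPM, from 0, in each cluster of glutamatergic-like nuclei with at least 20 nuclei of a mouse. Points are mice, and the class of a cluster stands in brackets. For Cux2 the clusters c15 (224.6 to 235.7 CPM) and c29 lie far above all others, and both are also high in Mef2c.

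Among glia, Cux2 was higher in oligodendrocyte precursor (OPC)-like nuclei, with 115, 69.5 and 60.05 CPM, than in oligodendrocyte-like nuclei, with 55.4, 38.5 and 42.1 CPM. The ranges did not overlap, and the log2 difference was 0.78 ± 0.19 (adjusted p = 0.0442), below the fold minimum. The 7 inhibitory markers summed to 35.8% to 60.7% of the inhibitory level in OPC-like nuclei. Most of that was Erbb4, with 1741 to 4240 CPM, followed by Kcnip1 with 223, 89.2 and 693 CPM. Of the genes of GABA synthesis, Gad1 stood at 102, 61.0 and 104 CPM and Gad2 at 13.6 to 26.3 CPM, while Slc32a1, the vesicular GABA transporter, was at 1.15 to 5.63 CPM and Dlx1 at 0 in mice 1 and 3. Their part in the Cux2 level of OPC-like nuclei was not tested. Astrocyte-like nuclei had less Cux2, at 31.4, 12.5 and 6.30 CPM from 7, 3 and 9 UMIs. That made Cux2 and Aldh7a1 the 2 members called of 6 tested between astrocyte- and oligodendrocyte-like nuclei, where 18.9% of 12018 genes were called. The Cux2 log2 fold change was -2.02 ± 0.43 (adjusted p = 0.0106), lower in 3 of 3 mice. It was lost without mouse 3 (-1.18, adjusted p = 0.183) and after thinning (-2.98, adjusted p = 0.0885).

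Chd2 was found in every class at levels that varied little. Means over mice ran from 153 ± 31.1 CPM in CA3-like to 368 ± 71.4 CPM in microglia-like nuclei. Microglia-like nuclei held 396, 286 and 420 CPM, all above the next class in the order, Cajal-Retzius-like neurons, with 271, 239 and 284 CPM. They were not clear of every lower class, since endothelial-like nuclei of mouse 3 held 308 CPM. Below Cajal-Retzius-like neurons, neighbouring ranges overlapped for each pair of classes. In granule-like nuclei the mice differed, with 223, 253 and 118 CPM, and mouse 3 lay lowest there and in CA1-like nuclei (142, 208 and 118 CPM). Chd2 was called in none of the 8 comparisons. Its largest fitted difference was 0.49 ± 0.23 between microglia- and oligodendrocyte-like nuclei (adjusted p = 0.234), although the CPM ranges, 286 to 420 against 186 to 225, did not overlap.

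Gnao1 was highest in oligodendrocytes and astrocytes and lowest in microglia. Oligodendrocyte-like nuclei held 840, 505 and 1422 CPM and astrocyte-like nuclei 1011, 542 and 497 CPM, ranges that overlapped. Astrocyte-like values lay above the next class, Cck-like interneurons, at 357, 357 and 472 CPM. From there down, neuronal classes and OPC-like nuclei formed a graded series with overlapping neighbours, ending in granule-like nuclei with 148, 184 and 253 CPM, endothelial-like and Pvalb-like nuclei. Microglia-like nuclei held 49.9, 235 and 33.6 CPM, with mouse 2 far above the others.

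**Figure D4:**
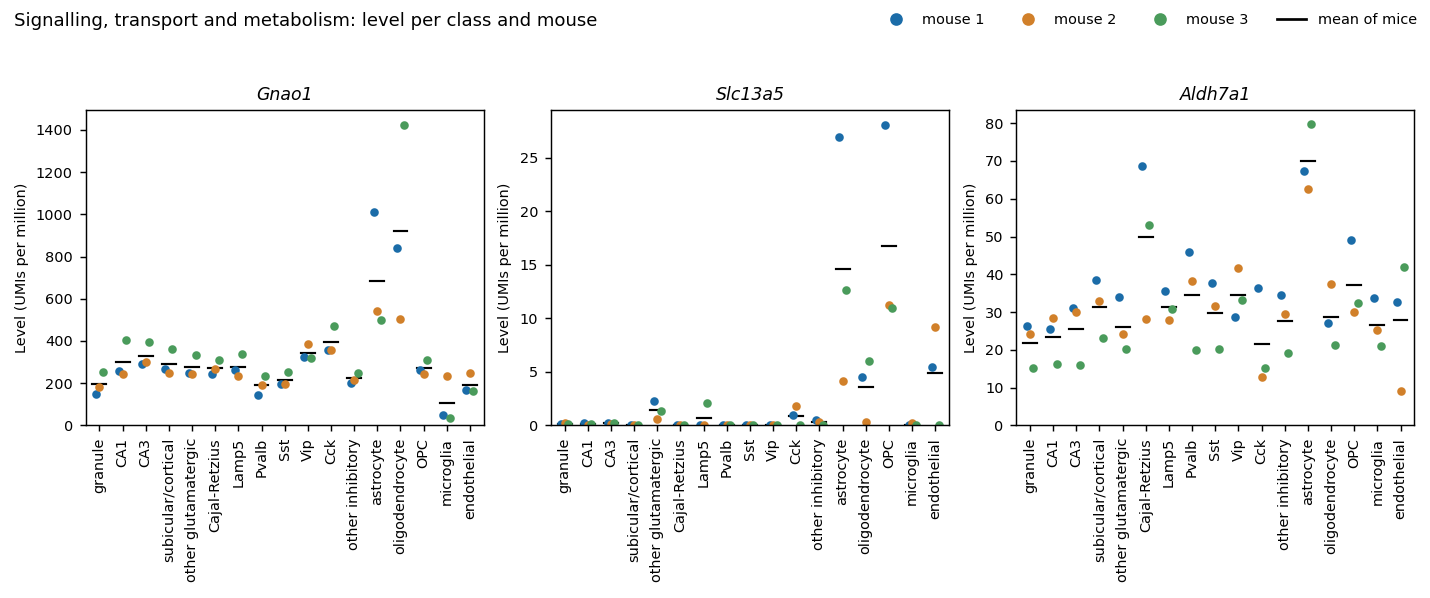
Level of Gnao1, Slc13a5 and Aldh7a1 in CPM on linear axes from 0, for 17 classes. Points are mice 1 to 3 and bars their mean. Gnao1 peaks in oligodendrocyte- and astrocyte-like nuclei, Slc13a5 in OPC- and astrocyte-like nuclei at under 30 CPM, and Aldh7a1 in astrocyte-like nuclei.

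Gnao1 was the 1 member called of 6 tested between OPC- and oligodendrocyte-like nuclei, where 16.2% of 12296 genes were called. OPC-like nuclei held 262, 243 and 312 CPM, all below the lowest oligodendrocyte value of 505 CPM. The log2 fold change was -1.68 ± 0.31 (adjusted p = 0.0225), lower in 3 of 3 mice. It was lost without mouse 1 (-1.62, adjusted p = 0.111) and without mouse 3 (-1.37, adjusted p = 0.163). Mouse 2 again held different kinds of oligodendrocyte-like nuclei: Gnao1 was 799 and 917 CPM in the clusters shared with mouse 1, close to that mouse's own 856 and 802 CPM there, and 366 CPM in its shallow cluster (median 1192.5 UMIs). Microglia- against oligodendrocyte-like nuclei gave the widest difference in Gnao1, -3.94 ± 1.15, lower in 3 of 3 mice without overlap, at an adjusted p of 0.0886. Without mouse 2 it was -5.10 (adjusted p = 4.04e-05), and with DESeq2 -3.89 (adjusted p = 2.26e-05). In mouse 2 the 89 microglia-like nuclei that clustered with those of mouse 1 held 56.3 CPM and the 1500 of its own cluster held 253 CPM, near the 249 CPM of its glutamatergic-like nuclei.

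Thinned to 1000 UMIs, a Gnao1 UMI was found in 53.4%, 35.8% and 73.9% of oligodendrocyte-like, 23.3%, 19.1% and 22.0% of OPC-like and 5.61%, 21.001% and 5.64% of microglia-like nuclei. Without thinning these shares were 85.1%, 49.4% and 99.2%, 65.2%, 36.7% and 91.1%, and 11.5%, 33.6% and 19.5%, in the same order, at median microglial depths of 2463, 1373 and 6401 UMIs. Microglia of mice 1 and 3 were thus the low class in both measures.

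Among neurons, Gnao1 differed by less than the fold minimum. It was lower in granule-like than in CA pyramidal-like sums by -0.66 ± 0.14 (adjusted p = 0.017) and lower in Pvalb- or Sst-like than in Lamp5-, Vip- or Cck-like sums by -0.71 ± 0.10 (adjusted p = 0.000538), in 3 of 3 mice and without overlap in either. Neuron-like nuclei held 230, 246 and 333 CPM and glia-like nuclei 603, 339 and 811 CPM, without overlap. The difference of -0.68 ± 0.28 had an adjusted p of 0.122, and scaling by library totals in place of TMM, a choice made after seeing the data, gave -1.05 (adjusted p = 0.0441).

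Slc13a5 was sparse and highest in OPC- and astrocyte-like nuclei, but not in all glia, and was counted 99, 22 and 96 times in all kept nuclei of mice 1, 2 and 3. OPC-like nuclei led with 28.0, 11.3 and 10.97 CPM from 33, 12 and 19 UMIs. Astrocyte-like nuclei held 27.0, 4.17 and 12.6 CPM from 6, 1 and 18 UMIs, and the exact 95% Poisson interval of the value in mouse 2 ran from 0.106 to 23.2 CPM. Oligodendrocyte-like nuclei held 4.50, 0.347 and 5.98 CPM, and neighbouring classes in the order overlapped. Microglia-like nuclei had 0, 1 and 0 UMIs, which is 0.243 CPM in mouse 2 and allows up to 1.85 and 2.24 CPM in mice 1 and 3. Sst-, Pvalb-, Vip- and subicular or cortical-like neurons had no UMI in any mouse; in the 411, 841 and 249 nuclei of the last class a count of 0 allows up to 0.351, 0.648 and 0.275 CPM.

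Neuron-like nuclei held 0.476, 0.167 and 0.297 CPM of Slc13a5 (36, 5 and 35 UMIs) and glia-like nuclei 7.62, 1.81 and 7.19 CPM (62, 15 and 60 UMIs), without overlap. Slc13a5 was the 1 member called of 6 tested here, where 21.4% of 17578 genes were called, with a log2 fold change of -3.68 ± 0.36 (adjusted p = 0.0137), lower in 3 of 3 mice. Without mouse 1 it was -3.64 (adjusted p = 0.101) and without mouse 3 -3.55 (adjusted p = 0.12), in fits that called no gene. Among all genes called here, 1298 were higher and 2468 lower in neurons, against 2608 and 2916 by DESeq2 and 1060 and 3297 with library totals, 60 and 1511 when each library was clustered alone, and 3291 and 3286 without mouse 2. The few neuronal UMIs were unevenly placed. The Cux2-rich clusters described above held 67.6%, 33.3% and 58.1% of the 34, 3 and 31 UMIs of glutamatergic-like nuclei, and the cluster led by Cpa6 reached 7.65 and 4.67 CPM in mice 1 and 3.

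Among glial classes, OPC-like exceeded oligodendrocyte-like nuclei in Slc13a5 by 2.20 ± 0.62 (adjusted p = 0.0651), higher in 3 of 3 mice without overlap. DESeq2 called it (2.44, adjusted p = 0.00614), as did the fit without mouse 2 (1.77, adjusted p = 0.0156). Astrocyte- against oligodendrocyte-like nuclei gave 1.61 ± 0.61 (adjusted p = 0.111). A Slc13a5 UMI was seen in 11.5%, 2.77% and 11.4% of OPC-like nuclei and in 0.164%, 0.103% and 0.299% of granule-like nuclei, whose depth was greater in each mouse. Thinned to 1000 UMIs, the OPC-like share was 1.59 ± 1.79%, and no granule-like nucleus had a UMI.

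Aldh7a1 was highest in astrocytes. Astrocyte-like nuclei held 67.4, 62.6 and 79.9 CPM from 15, 15 and 114 UMIs, and oligodendrocyte-like nuclei 27.2, 37.5 and 21.3 CPM, without overlap. The log2 fold change was 1.25 ± 0.29 (adjusted p = 0.0164), higher in 3 of 3 mice. It was 0.97 without mouse 3 (adjusted p = 0.169), the mouse with 119 astrocyte-like nuclei against 42 and 66, and 1.205 after thinning (adjusted p = 0.182). Cajal-Retzius-like neurons came next in the order with 68.6, 28.1 and 53.0 CPM from 19, 2 and 14 UMIs and overlapped the astrocyte range. The other 15 classes had means between 21.5 and 37.2 CPM and overlapping neighbours, and Aldh7a1 was called in none of the other 7 comparisons.

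**Figure D5:**
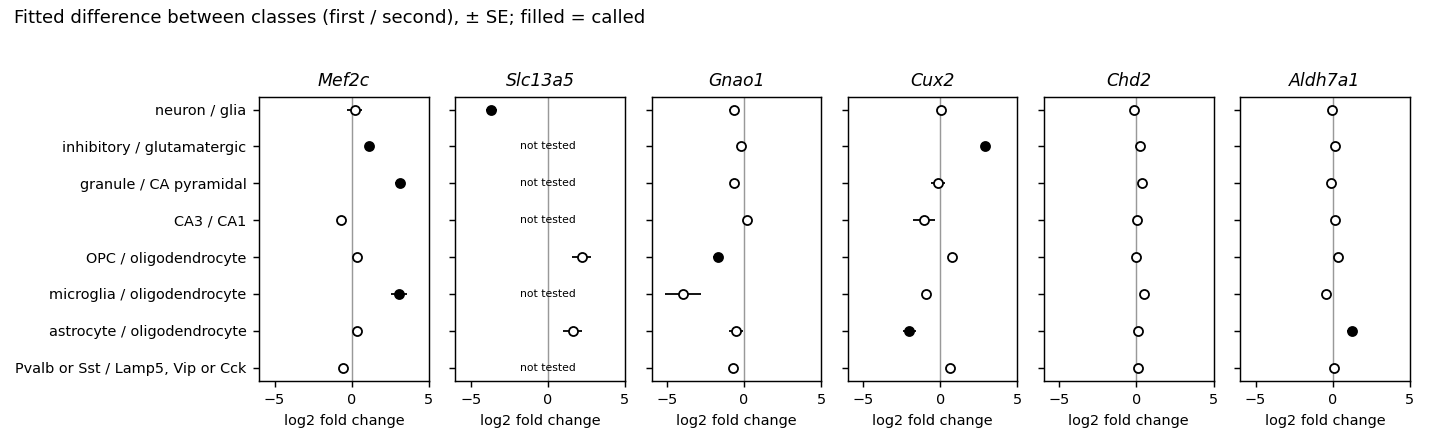
Fitted log2 fold change (first class over second) with its SE for each member in each of 8 comparisons over 3 mice. The test was edgeR's quasi-likelihood test, and the SE was taken from its F statistic. Filled points were called, open points were not, and comparisons in which Slc13a5 had too few counts are marked as not tested. The 8 filled points belong to Mef2c (3), Cux2 (2), Slc13a5, Gnao1 and Aldh7a1.

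Between CA3- and CA1-like nuclei 0 of the 5 tested members were called beside 9.01% of 15402 genes by edgeR, 1 of them (Mef2c) had an unadjusted p under 0.05, and DESeq2 called none. The largest differences were Cux2 at -1.06 ± 0.72, which turned to 0.22 without mouse 3, and Mef2c at -0.69 ± 0.24. Without mouse 2, Mef2c was called at -1.05 (adjusted p = 0.0122). The filter on low counts left Slc13a5 out of 5 comparisons, and the other 5 members passed it in all 8.

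Scaling moved the middle of the distribution in some comparisons. With library totals in place of TMM, the median log2 fold change of all genes went from 0.04 to -0.33 between neurons and glia, from -0.09 to 0.24 between microglia and oligodendrocytes, from -0.10 to 0.05 between astrocytes and oligodendrocytes and from -0.01 to 0.11 between inhibitory and glutamatergic neurons. The 8 calls of members stayed under that scaling.

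Of the 4 MEF2 genes, Mef2c and Mef2a rose in microglia-like over oligodendrocyte-like nuclei, where 12.5% of all genes were called. Mef2a rose by 2.35 (adjusted p = 0.0347), and the family median was 1.54 against -0.09 over all genes. The medians of these families, and of the lists below that hold a member, include that member's own value. Mef2b rose with Mef2c in granule-like over CA pyramidal-like nuclei (1.26, adjusted p = 0.0236), where 16.7% of all genes were called. The family median there was 0.68 against 0.04. Cux1, the only relative of Cux2, was higher in inhibitory than in glutamatergic neurons (1.07, adjusted p = 0.00316), as Cux2 was. Both CUX genes were thus called there, where 15.1% of all genes were called. Their median was 1.98 against -0.01. In microglia- over oligodendrocyte-like nuclei Cux1 was higher (1.87, adjusted p = 0.0445), whereas Cux2 was not called (-0.90, adjusted p = 0.109).

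Of 13 genes for G protein alpha subunits, 11 were tested between OPC- and oligodendrocyte-like nuclei. There Gna12 (-2.15, adjusted p = 0.0101) fell with Gnao1 and Gnal rose (1.73, adjusted p = 0.048), with a list median of 0.19 against -0.02. In that comparison 16.2% of all genes were called. In microglia- against oligodendrocyte-like nuclei 3 of 12 rose and 1 fell, beside 12.5% of all genes called, with a median of 0.03 against -0.09. Gna15, of the Gq class of blood cells, rose by 6.02 (adjusted p = 0.0318), and Gnai1 fell by 2.51 (adjusted p = 0.0458). Between neurons and glia 21.4% of all genes were called in either direction. In the list of SLC13 carriers and genes of cytosolic citrate use, 3 of 7 tested genes were lower in neurons and none higher. Besides Slc13a5 these were Slc13a3 (-4.93, adjusted p = 0.0137) and the sulfate carrier Slc13a1 (-4.99, adjusted p = 0.0254), and the list median was -1.10 against 0.04. Between OPC- and oligodendrocyte-like nuclei Slc13a1 fell by 4.91 (adjusted p = 0.0113), from 59.2 to 2.16 CPM on average, whereas the fitted Slc13a5 difference was 2.20. Of the 9 CHD remodellers, Chd7 was lower in neurons (-4.09, adjusted p = 0.015) and Chd5 higher (1.94, adjusted p = 0.0409), with a median of -0.15 against 0.04.

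Aldh7a1 was accompanied in astrocytes by Aass, the bifunctional enzyme that starts lysine breakdown. Astrocyte-like nuclei held 8, 7 and 51 UMIs of Aass, or 35.9, 29.2 and 35.7 CPM, and oligodendrocyte-like nuclei none in any mouse (adjusted p = 0.00061). Set against the 3 UMIs that a count of 0 allows in each library, the measured astrocyte-like level was 61.2-fold, 28.0-fold and 45.8-fold higher in mice 1, 2 and 3. These folds leave out the counting error of the 8, 7 and 51 astrocyte UMIs and are not lower bounds. Pdxk, pyridoxal kinase, was called lower (-1.66, adjusted p = 0.0483), although its CPM ranges overlapped and it was higher in 1 of 3 mice. These were the only calls among the 8 of 10 listed genes tested, whose median was 0.14 against -0.10. The share of all genes called there was 18.9%.

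Of 40 further non-channel genes of epileptic encephalopathy, 11 were higher and 1 lower in neurons than in glia, with a median of 0.90 against 0.04 over all genes tested, in the comparison where 21.4% of genes were called. The largest of these were Gabbr2, a GABA-B receptor subunit (2.26, adjusted p = 0.0431), and Slc12a5, the neuronal potassium-chloride cotransporter (1.79, adjusted p = 0.0474). Piga, which starts GPI anchor synthesis, was the gene lower in neurons (-1.30, adjusted p = 0.0203). None of the 6 members was called higher in neurons. Between inhibitory and glutamatergic neurons 5 of the 40 were higher and 1 lower (median -0.06 against -0.01), a share near the 15.1% of all genes called there. Among the higher genes was Cplx1, a complexin of synaptic vesicle release (1.21, adjusted p = 0.00763). Granule- against CA pyramidal-like nuclei gave 1 call of 39, Sik1 (2.00, adjusted p = 0.0146), where 16.7% of all genes were called.

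The genes with the profiles most like those of the members were found by Pearson's r of log2(CPM + 1) over the 17 class means, among 13946 genes. The classes share libraries and depth, and no test was made. For Mef2c they were Ttc17 (r = 0.867), Atf3 (0.829) and Fgf13 (0.819), and for Cux2 Pwp1 (0.849), Rab3b (0.844) and Zfp846 (0.822). Chd2 was closest to Cux1 (0.914), Nfic (0.905) and Zfp787 (0.904), all highest in microglia-like nuclei. Gnao1 was closest to Kif1b (0.898), Clip3 (0.893) and Amer2 (0.884), Slc13a5 to S100a16 (0.933), Metrn (0.928) and Arhgef19 (0.919), and Aldh7a1 to Slc7a10 (0.893), Id4 (0.890) and Ndufaf8 (0.871). Among the 15 pairs of members the values ran from -0.54 for Mef2c with Gnao1 to 0.54 for Mef2c with Cux2.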

How the data were processed

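Nuclei were stained with propidium iodide, sorted and sequenced with the 10x 3′ kit, per the labels' protocols. The authors deposited raw UMI counts per gene and barcode, made with Cell Ranger 7.0.0 (mice 1 and 2) and 7.1.0 (mouse 3), per the file headers, aligned to mm10 (build per the submitters' processing notes). Intron counting: not given in the sources used here. Barcodes under 500 genes or over 5% mitochondrial UMIs were dropped, and Scrublet (scanpy 1.11.5) removed 732, 1207 and 265 doublets, by the expected rate in mouse 2, where its own threshold called too few. Leiden clusters (leidenalg 0.10.2) were named by at least 3 markers 2-fold over other nuclei. Glutamatergic clusters instead needed 4 of 8 glutamatergic markers 2-fold over nuclei already named to other classes. Failing that, 4 markers of 1 glutamatergic subtype with a mean rise of 2-fold sufficed. The deep granule-like cluster of mouse 2 met only 1 glutamatergic marker and entered by the second way. The scoring for glutamatergic, granule and interneuron clusters was revised after clusters were seen. Counts were summed per class and mouse (at least 20 nuclei) and tested with edgeR 4.0.16 (R 4.3.3; TMM, mouse as block, as both sums came from 1 animal; same-mouse deviations correlated in every comparison, though at only 0.05 for mouse 2 between neurons and glia); DESeq2 1.42.0, no filter, thinning, separate clustering and fewer mice were alternatives, and library totals were added after the data were seen. The tests were tried on simulated data. Replicates are 3 mice. The members and gene lists were chosen with earlier results of these data known, so a pattern among them is not independent support. All 6 members are named, with at most 2 genes of other lists per direction and the 3 most alike per member.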

Additional observations from a re-analysis of the deposited data

How the results depend on the processing

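The 8 calls of members kept their direction in all 71 alternatives run for them and their call in 57. Of the 14 losses, 10 came from leaving out a mouse, 3 from thinning to 1000 UMIs and 1 from dropping the mouse block, while DESeq2, no filter on low counts, separate clustering of each library and library totals changed none; the cause of the losses was not tested. Thinning left too few counts to test 6 of the 43 tested members, and leaving out mouse 3 left out 1. Numbers of genes called were 2070, 1041, 929, 477, 1080, 1028 and 266 after thinning for neuron against glia, inhibitory against glutamatergic, granule against CA, CA3 against CA1, OPC, astrocyte against oligodendrocyte, and Pvalb or Sst against other interneurons, with fewer genes tested in each. With no replicate block they were 1383 (inhibitory), 1367 (granule), 271 (CA3) and 412 (Pvalb or Sst), against 2504, 2774, 1388 and 1016. Separate clustering gave 1571 for neurons against 3766 and 801 for OPC against 1991. For microglia, DESeq2 gave 2806 and no filter 3082 against 1699. Leaving out a mouse gave 0 to 6577 for neurons, 961 to 2756 for inhibitory, 0 to 3404 for OPC, 0 to 4114 for microglia and 966 to 2651 for astrocytes (2272 with all mice). The counts of 0, by edgeR alone, arose for neurons without mouse 1 or 3 (3738 and 4947 genes at an unadjusted p under 0.05), for OPC without mouse 3 (2517) and for microglia without mouse 1 or 3 (2117 and 2773).

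Of the 43 differences of members, some changed sign, none of them called. With all mice, the largest of these were Cux2 for CA3 at -1.06, Mef2c between interneurons at -0.56 (adjusted p = 0.0214 by edgeR) and Gnao1 for astrocytes at -0.51. Between neurons and glia, Aldh7a1 was 0.0029 with DESeq2, 0.0402 with no filter, 0.14 after thinning and -0.11 to 0.11 with a mouse left out. Mef2c was -0.17 and Cux2 -0.30 with library totals, and with a mouse left out they ran from -0.41 to 0.74 and from -0.20 to 0.29. Cux2 for granule was 0.68 with separate clustering and -0.63 to 0.57 with a mouse left out, and for CA3 -1.70 to 0.22. Chd2 for CA3 was -0.0056 with no filter, -0.0036 with library totals, -0.0435 with separate clustering and -0.0431 to 0.0561 with a mouse left out, and for OPC 0.0128 with library totals and -0.0698 to 0.0379. Gnao1 for astrocytes ran from -0.74 to 0.14. Between interneurons, Mef2c (0.13) and Aldh7a1 (-0.0594) changed with separate clustering, and Aldh7a1 ran from -0.0499 to 0.28 with a mouse left out. Of 510 recomputed class levels, 455 moved by less than 1 SD over mice. Depth limits Slc13a5 most, with 217 UMIs in all.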
